A study of Mus musculus with 18 samples.

Results

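The genes described here are 10 genes of oxysterol handling among 23102 genes measured in mouse macrophages. They are 7 members of the oxysterol binding protein family (Osbp, Osbp2, Osbpl3, Osbpl5, Osbpl8, Osbpl9 and Osbpl11), the oxysterol receptor Gpr183, and the enzymes Ch25h and Cyp7b1, which make its ligand. All 10 were measured. They were chosen by name with earlier results of these arrays in view, in particular the level of Osbp2 in talc against vehicle and of Gpr183 in TiO2 against vehicle. The differences between talc, TiO2 and vehicle without estradiol are therefore given as a description, with no test. The 8 other contrasts were tested.

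RNA came from J774 cells, a mouse macrophage line, cultured without phenol red in 24-well plates. Each of 6 groups had 3 arrays. The groups were talc plus estradiol, talc, TiO2 plus estradiol, TiO2, estradiol, and vehicle, where vehicle cells got neither particle nor hormone. Talc is a magnesium silicate mineral, and TiO2 (titanium dioxide) is the other particle of the study. Particles were given at 10 µg per well and 17-β estradiol at 2 µg/mL, for 24 h. All groups share 1 cell line, and no label states that replicate arrays stand for independent cultures. The p-values therefore measure only the spread between these arrays, which may be technical, and 3 arrays per group limit the precision.

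Oxysterols are cholesterol molecules that carry an extra hydroxyl group. Proteins of the oxysterol binding protein family sit where membranes of different organelles touch, and many of them exchange a sterol or another lipid for a phosphoinositide between these membranes. A separate arm of oxysterol biology is a signal between cells. Ch25h hydroxylates cholesterol, Cyp7b1 adds a further hydroxyl group, and the product attracts immune cells that carry Gpr183. Macrophages take up much cholesterol and particulate matter, and their oxysterols act through the nuclear receptor LXR to switch on sterol export.

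The genes whose values differed most between groups were Osbp2, Osbpl3 and Gpr183, so the sequences in front of their annotated starts are shown here. Each is the 250 bases before a start, 5′ to 3′ on the gene's strand, from the RefSeq promoter table of GRCm38.p6. RefSeq lists 3 starts for Osbp2 and 1 each for Osbpl3 and Gpr183, and all lie on the minus strand. The table matched 9 of the 10 genes. The array files name no genome build and give no position for a probe set, so no probe set can be tied to one of these starts here. Capitals mark the GC box (GGGCGG) and the E-box (CACGTG), on either strand.
Osbp2, upstream start, chr11:3863904-3864153: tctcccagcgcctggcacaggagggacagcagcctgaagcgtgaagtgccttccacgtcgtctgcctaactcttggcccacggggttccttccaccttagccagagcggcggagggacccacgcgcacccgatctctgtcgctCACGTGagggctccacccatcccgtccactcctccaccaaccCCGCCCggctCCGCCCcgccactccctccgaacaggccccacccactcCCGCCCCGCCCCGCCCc
Osbp2, middle start, chr11:3774669-3774918: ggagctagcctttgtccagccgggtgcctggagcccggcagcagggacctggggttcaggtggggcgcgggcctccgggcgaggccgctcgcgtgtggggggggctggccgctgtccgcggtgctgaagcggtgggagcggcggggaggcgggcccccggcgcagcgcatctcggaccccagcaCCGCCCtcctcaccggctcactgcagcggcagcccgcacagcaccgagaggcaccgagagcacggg
Osbp2, downstream start, chr11:3722228-3722477: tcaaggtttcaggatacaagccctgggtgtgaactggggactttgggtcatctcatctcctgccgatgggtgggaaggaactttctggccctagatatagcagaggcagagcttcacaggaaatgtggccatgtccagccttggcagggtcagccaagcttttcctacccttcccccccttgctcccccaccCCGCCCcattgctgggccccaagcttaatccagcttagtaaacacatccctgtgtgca
Osbpl3, chr6:50456171-50456420: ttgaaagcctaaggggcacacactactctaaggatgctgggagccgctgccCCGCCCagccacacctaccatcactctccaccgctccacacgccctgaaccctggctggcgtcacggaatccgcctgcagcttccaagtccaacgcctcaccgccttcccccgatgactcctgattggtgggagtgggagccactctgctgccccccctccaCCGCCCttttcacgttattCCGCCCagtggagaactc
Gpr183, chr14:121965194-121965443: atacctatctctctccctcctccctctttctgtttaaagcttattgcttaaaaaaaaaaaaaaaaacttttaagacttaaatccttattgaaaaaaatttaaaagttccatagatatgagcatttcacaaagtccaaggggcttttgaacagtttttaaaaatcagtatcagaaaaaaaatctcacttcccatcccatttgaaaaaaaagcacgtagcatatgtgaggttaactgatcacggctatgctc

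The 3 windows of Osbp2 differed in composition. Their GC contents were 70.4%, 76.8% and 56.0%, in the order shown, against a median of 52.4% over 32851 windows of all listed starts. The window of the upstream start held an E-box 107 bases before the start and 5 GC boxes, of which the last 3 overlap each other by 1 base. The other windows of Osbp2 held 1 GC box each. Osbpl3 had 3 GC boxes in a window of 62.8% GC, and the AT-rich window of Gpr183, at 32.0% GC, held none. Of all listed windows, 32.7% hold a GC box and 6.02% an E-box. None of the 5 windows held the AP-1 motif TGANTCA, found in 6.75% of all windows, or the CRE motif TGACGTCA, found in 1.55%. The sterol regulatory motif TCACNCCAC (1.05% of all windows), the estrogen response element (GGTCA and TGACC, 3 bases apart, 0.0639%) and the LXR element (AGGTCA repeated 4 bases apart, 0.0152%) were likewise not among these letters. Both strands were searched, and a match or its lack says only what letters stand in this window.

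The values are log2 intensities. Each gene's value is the mean over its probe sets, which number 3 for Gpr183 and Ch25h and up to 33 for Osbpl9. Array medians lay between 45.6 and 48.0 on the linear intensity scale. The upper quartiles of the 3 TiO2 plus estradiol arrays, 222.2 to 233.5, were below those of all 15 other arrays, 237.9 to 249.1. The calls of Osbp2 and Osbpl3 against that group, given further on, held with quantile normalization and with array medians subtracted. Of the markers that define a macrophage, 8 of 8 lay above the median gene. Among markers of other cell types, 1 of 4 for fibroblasts, 2 of 4 for epithelium and 0 of 3 measured for lymphocytes did so. The mean of the macrophage list was 10.47 to 10.55 on the talc plus estradiol arrays, 10.37 to 10.50 with talc, 10.42 to 10.46 with TiO2 plus estradiol, 10.39 to 10.58 with TiO2, 10.50 to 10.51 with estradiol and 10.55 to 10.59 with vehicle. The median of all gene means was 4.73 on the log2 scale. Osbpl5, Ch25h and Cyp7b1 lay below it, at the percentiles 39.6, 33.1 and 22.3 of all genes, so that values of these 3 genes lie in the dim range of the array.

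**Figure D1:**
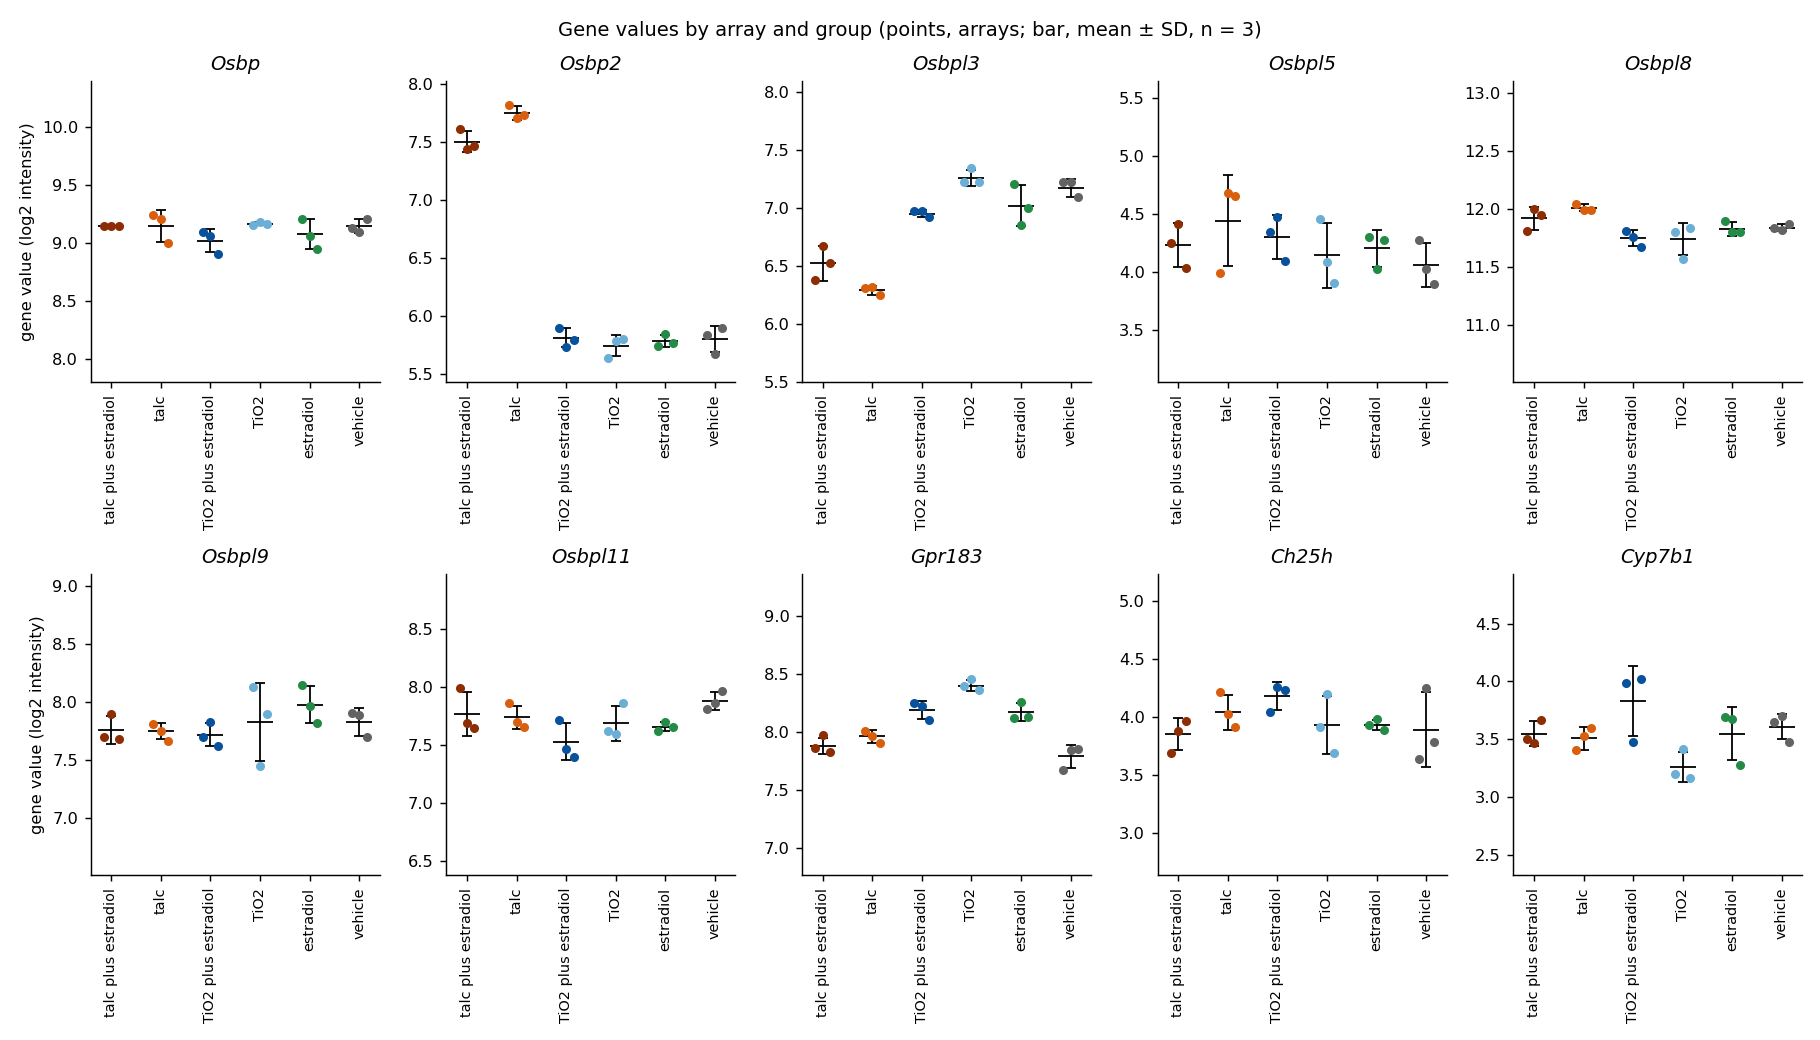
Log2 intensity (vertical axis) of each of the 10 genes in the 6 treatment groups (horizontal axis). Points are arrays, and bars are group means with SD (n = 3). Osbp2 stands between 7.44 and 7.82 on the 6 arrays with talc and between 5.63 and 5.89 on the 12 arrays without it, while Osbpl3 is lower on the talc arrays and Gpr183 is lowest with vehicle and highest with TiO2.

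Osbp2 was the gene of this set that changed most, and it was high wherever talc was given. It encodes ORP4, the closest relative of Osbp, with which it can pair. With talc plus estradiol the 3 arrays read 7.61, 7.44 and 7.46, against 5.74, 5.84 and 5.76 with estradiol alone. Every talc plus estradiol array lay far above every estradiol array. The difference was 1.72 ± 0.09 on the log2 scale (SE, n = 3 arrays per group; 95% interval 1.52 to 1.92), which is 3.3-fold, with an adjusted p of 2.4e-08 in limma (two-sided, Benjamini-Hochberg over all 23102 genes). In RNA from whole wells, a change in the number of cells of one state and a change in RNA per cell cannot be told apart.

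The TiO2 arrays show the level of Osbp2 with another particle. TiO2 plus estradiol gave 5.89, 5.73 and 5.79, which overlapped the estradiol arrays, and the difference from estradiol was 0.02 ± 0.09 (95% interval -0.17 to 0.22). Talc plus estradiol exceeded TiO2 plus estradiol by 1.70 ± 0.09 (adjusted p = 3e-08). That call was lost when the brightest of the 18 Osbp2 probe sets alone stood for the gene, at 0.31 with an adjusted p of 0.36, while against estradiol the same choice left a call. Leaving out any 1 of the 18 arrays kept the difference from TiO2 plus estradiol between 1.65 and 1.74.

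Without estradiol the arrays gave the same order, as a description, since this contrast was used in choosing the gene. Talc arrays read 7.82, 7.71 and 7.73, TiO2 arrays 5.63, 5.78 and 5.80, and vehicle arrays 5.83, 5.67 and 5.89. Talc stood 1.96 ± 0.09 above vehicle (3.88-fold) and 2.01 ± 0.09 above TiO2, and TiO2 differed from vehicle by -0.06 ± 0.09. Ordered by mean, the groups were talc (7.75 ± 0.06, SD), talc plus estradiol (7.50 ± 0.09), then TiO2 plus estradiol (5.81 ± 0.08), vehicle (5.80 ± 0.11), estradiol (5.78 ± 0.05) and TiO2 (5.74 ± 0.09). The last 4 groups overlapped each other. The lowest talc array, 7.71, was above the highest talc plus estradiol array, 7.61, but the difference of -0.25 ± 0.09 (95% interval -0.45 to -0.05), which uses the talc arrays that took part in choosing the gene, did not pass the test over all genes (unadjusted p = 0.017, adjusted p = 0.72). The interaction of talc and estradiol, which contains the arrays used to choose the gene, was -0.24 ± 0.13 (adjusted p = 0.83).

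The 18 probe sets of Osbp2 were not uniform. In talc plus estradiol against estradiol 16 were higher and 2 lower, and 14 were higher by at least 1 log2 unit. In talc against vehicle 17 were higher, and the probe sets past 1 log2 unit were the same 14. These 14 ranged from 1.10 to 2.99 in the estradiol arm and from 1.25 to 3.52 in the vehicle arm. The other 4, numbered 17259890, 17259893, 17259894 and 17259895, are among the last 6 of the gene by number. Their differences were -0.45, 0.66, 0.28 and -0.07 in the estradiol arm and 0.49, -0.38, 0.96 and 0.17 in the vehicle arm. All of the first 12 probe sets by number were higher by at least 1 log2 unit in both arms. Probe sets of 1 gene share their arrays and are not replicates, and the files do not say which exon each one reads. In TiO2 against vehicle 7 were higher and 11 lower, with no probe set past 1 log2 unit. In TiO2 plus estradiol against estradiol 9 were higher and 9 lower, from -0.79 to 0.92. Talc plus estradiol against TiO2 plus estradiol had 15 higher and 3 lower, with 12 higher by at least 1 log2 unit. Probe sets 17259876 and 17259881 read 8.08 and 8.07 with talc plus estradiol, against 7.76 and 7.78 with TiO2 plus estradiol.

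**Figure D2:**
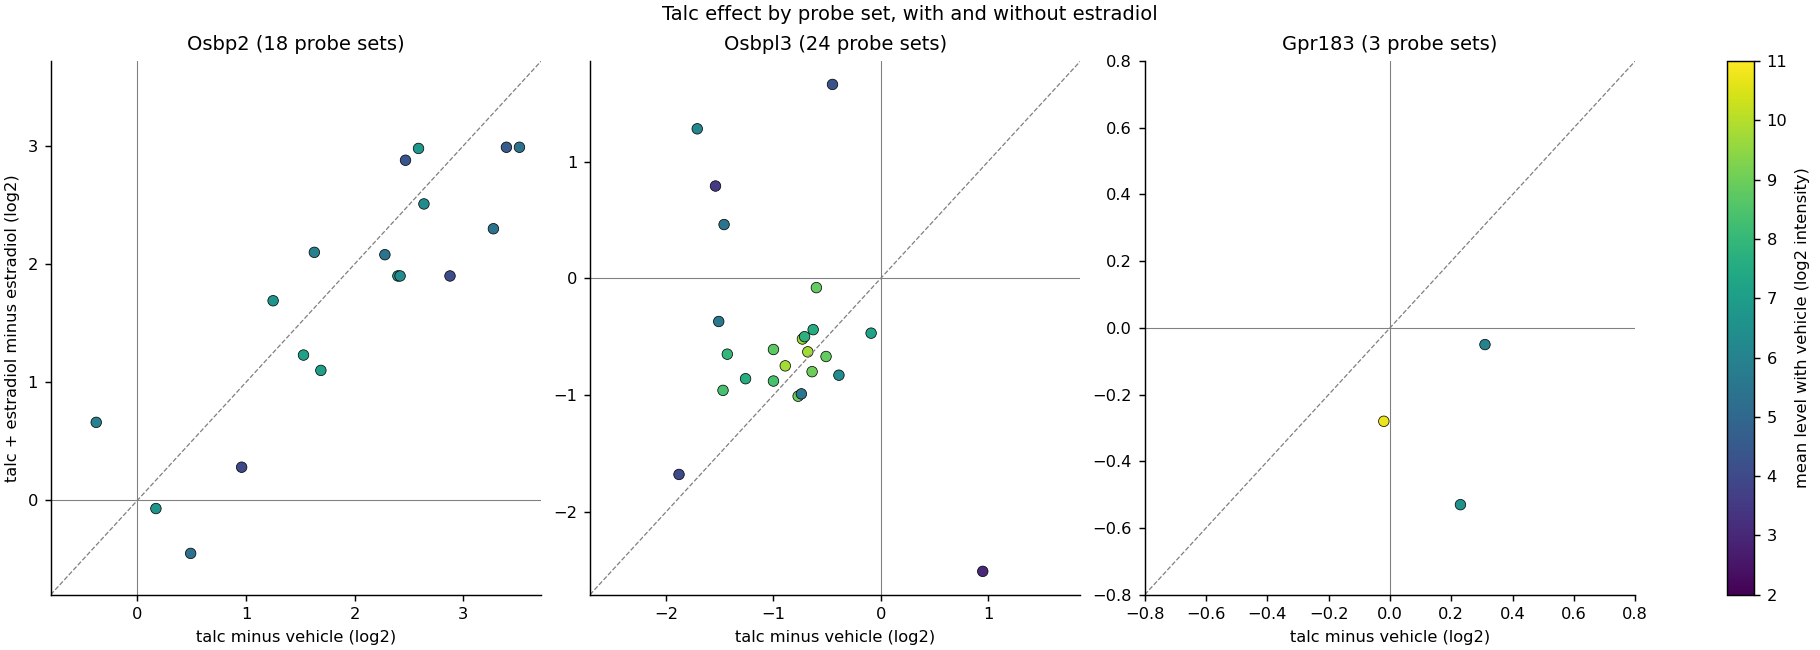
Each point is 1 probe set of Osbp2, Osbpl3 or Gpr183, with its log2 difference in talc against vehicle (horizontal axis) and in talc plus estradiol against estradiol (vertical axis), coloured by its mean level with vehicle. The dashed line marks equal differences. Of the 18 Osbp2 probe sets 14 lie above 1 on both axes, and of the 24 Osbpl3 probe sets 13 lie at or below -0.5 on both (unrounded values).

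Osbpl3 moved the other way. It encodes ORP3, which in human cells has been linked to R-Ras and to cell adhesion. Talc plus estradiol arrays read 6.38, 6.67 and 6.52, against 7.21, 6.85 and 7.0 with estradiol. The 2 groups did not overlap, although the lowest estradiol array was only slightly above the highest talc plus estradiol array. Osbpl3 fell by 0.50 ± 0.10 on the log2 scale (95% interval -0.72 to -0.28), or to 0.707 of its estradiol level (adjusted p = 0.0068). The call was lost with the brightest probe set (adjusted p = 0.11) and when the fit used only the arrays compared (adjusted p = 0.077).

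Against TiO2 plus estradiol, whose arrays read 6.97, 6.97 and 6.92, talc plus estradiol was lower by 0.43 ± 0.10 (adjusted p = 0.015). That call was lost without talc plus estradiol replicate 1 (-0.36, adjusted p = 0.074) or replicate 3 (-0.43, adjusted p = 0.050), with the median of the probe sets (adjusted p = 0.060) and with only the arrays compared (adjusted p = 0.086). TiO2 plus estradiol differed from estradiol by -0.07 ± 0.10 (95% interval -0.29 to 0.15).

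In cells without estradiol, given as a description, talc arrays of Osbpl3 read 6.31, 6.32 and 6.25, TiO2 arrays 7.22, 7.34 and 7.22, and vehicle arrays 7.22, 7.22 and 7.09. The talc arrays lay clearly below both other groups, and TiO2 and vehicle overlapped. Talc stood at -0.88 ± 0.10 against vehicle and -0.97 ± 0.10 against TiO2. By mean the order was TiO2 (7.26), vehicle (7.17), estradiol (7.02), TiO2 plus estradiol (6.95), talc plus estradiol (6.52) and talc (6.29). Neighbouring groups overlapped in this order down to TiO2 plus estradiol. The drop from that group to talc plus estradiol is the one tested above, and talc plus estradiol exceeded talc by 0.23 ± 0.10 without passing the test (unadjusted p = 0.043, adjusted p = 0.75). The interaction of talc and estradiol was 0.38 ± 0.15 (adjusted p = 0.70).

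Of the 24 probe sets of Osbpl3, 20 were lower and 4 higher in talc plus estradiol against estradiol, and 23 were lower in talc against vehicle. Brighter than the median gene with vehicle were 20 of them, of which 18 were lower in the estradiol arm and 20 in the vehicle arm. The widest differences in both directions, -2.51 and 1.66 in the estradiol arm, are single probe sets.

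Among all 10 genes, talc plus estradiol against estradiol thus gave 1 higher (Osbp2) and 1 lower gene (Osbpl3). Over all genes tested 7.13% were called in that contrast, 4.13% higher and 3.0% lower. The median difference of the 10 genes was 0.01, beside 0.0 for all genes. Talc plus estradiol against TiO2 plus estradiol gave 1 higher gene (Osbp2) and 2 lower (Osbpl3 and Gpr183), with 9.53% of all genes called, 6.66% higher and 2.87% lower. Their median difference was -0.02, beside -0.01 for all genes. Both contrasts use the same talc plus estradiol arrays, so they are not independent of each other. The genes were chosen with the level of Osbp2 in talc against vehicle in view. The counts among the 10 are therefore not independent of that choice, and no conclusion is drawn from setting them beside the shares of all genes.

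In TiO2 plus estradiol against estradiol, limma called 0 of the 10 genes, and 0 had an unadjusted p under 0.05. In that contrast 0.00433% of all genes were called and 8.91% had an unadjusted p under 0.05. Without a test, the differences of the 10 genes from vehicle ranged from -0.88 to 1.96 with talc (median 0.08, beside 0.02 for all genes) and from -0.35 to 0.62 with TiO2 (median 0.01, beside -0.01).

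**Figure D3:**
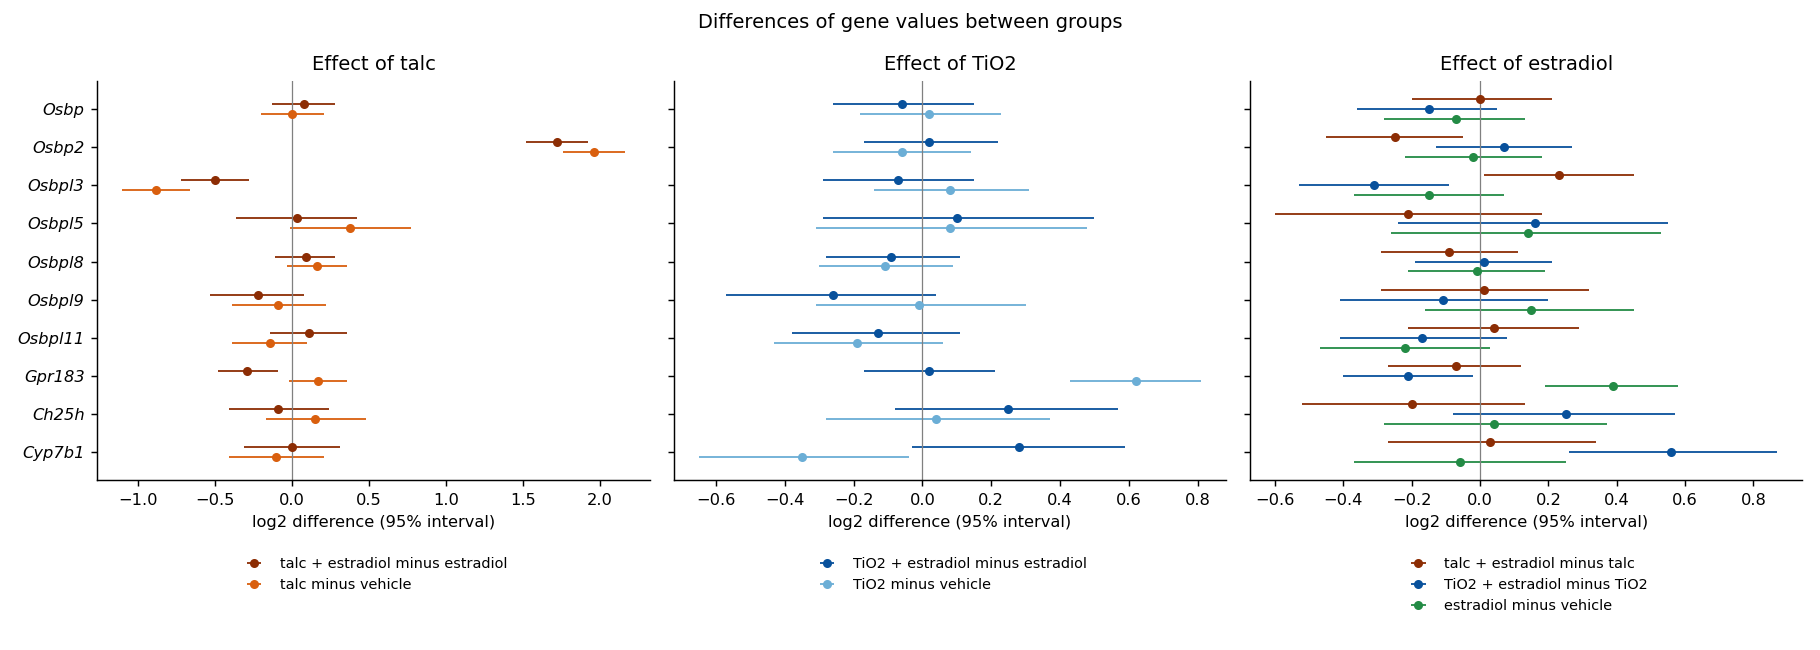
Log2 differences of the 10 genes with 95% intervals for the effects of talc, of TiO2 and of estradiol (panels), with colours for the contrasts named under each panel. The contrasts of talc and of TiO2 against vehicle, used in choosing the genes, carry no test. Osbp2 lies at 1.72 and Osbpl3 at -0.50 in talc plus estradiol against estradiol, and Gpr183 lies at 0.62 in TiO2 against vehicle.

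Gpr183, the receptor, followed another pattern: it was lowest with vehicle and higher with TiO2, with estradiol and with both together. TiO2 arrays read 8.40, 8.46 and 8.36, estradiol arrays 8.12, 8.26 and 8.13, and vehicle arrays 7.67, 7.84 and 7.85. No array of the first 2 groups overlapped a vehicle array. As a description, since this contrast was used in choosing the gene, TiO2 stood 0.62 ± 0.09 above vehicle (1.54-fold). Estradiol against vehicle, which shares the vehicle arrays with that contrast, differed by 0.39 ± 0.09 (95% interval 0.19 to 0.58). This had an unadjusted p of 0.00058 but an adjusted p of 0.65, so it did not pass. In that contrast limma called 0 of the 10 genes and 0.0% of all genes, while 1 of the 10 (Gpr183) and 4.87% of all genes had an unadjusted p under 0.05.

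With TiO2 plus estradiol, Gpr183 read 8.25, 8.22 and 8.10. These arrays overlapped those of estradiol alone (difference 0.02 ± 0.09, 95% interval -0.17 to 0.21) and lay below those of TiO2 alone (-0.21 ± 0.09, unadjusted p = 0.033, adjusted p = 0.34). The TiO2 arrays of that second contrast took part in choosing the gene. The interaction of TiO2 and estradiol, in which the arrays that chose the gene take part, was -0.60 ± 0.13 (unadjusted p = 0.00025, adjusted p = 0.27).

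With talc plus estradiol the receptor's arrays read 7.86, 7.97 and 7.83, all below the estradiol arrays. The difference of -0.29 ± 0.09 (95% interval -0.48 to -0.09) had an adjusted p of 0.070 and passed in 4 of 26 alternative analyses. Talc plus estradiol was lower than TiO2 plus estradiol by 0.31 ± 0.09 (95% interval -0.50 to -0.12, adjusted p = 0.042). This call held in 12 of 26 alternatives, with differences between -0.43 and -0.23 and adjusted p between 0.0068 and 0.22. Leaving out any of 10 of the 18 arrays ended it, namely replicates 1 and 2 of TiO2 plus estradiol, all 3 of talc plus estradiol, all 3 of talc, replicate 3 of estradiol and replicate 2 of vehicle. Over all 18 arrays left out in turn, the difference stayed between -0.35 and -0.28 and the adjusted p between 0.039 and 0.15. With array medians subtracted the difference was -0.23 (adjusted p = 0.11), and with quantile normalization -0.43 (adjusted p = 0.0068).

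Without estradiol, talc arrays of Gpr183 read 8.01, 7.96 and 7.90, above the vehicle arrays and below the TiO2 arrays. Talc stood 0.17 ± 0.09 above vehicle and at -0.45 ± 0.09 against TiO2, as a description. By mean the groups ran from TiO2 (8.40 ± 0.05, SD) through TiO2 plus estradiol (8.19 ± 0.08), estradiol (8.17 ± 0.08), talc (7.96 ± 0.06) and talc plus estradiol (7.88 ± 0.07) to vehicle (7.79 ± 0.10). TiO2 plus estradiol and estradiol overlapped, as did talc plus estradiol with both of its neighbours. The interaction of talc and estradiol was -0.46 ± 0.13 (unadjusted p = 0.0025, adjusted p = 0.64).

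All 3 probe sets of Gpr183 were higher in TiO2 against vehicle, by 0.43 to 0.76, and in estradiol against vehicle, by 0.27 to 0.56. All 3 were lower in talc plus estradiol against estradiol, from -0.53 to -0.05. In talc against vehicle 2 were higher and 1 lower, from -0.02 to 0.31.

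Ch25h makes the first oxysterol of the ligand pathway. It read 3.69 to 3.96 with talc plus estradiol, 3.91 to 4.21 with talc, 4.04 to 4.26 with TiO2 plus estradiol, 3.69 to 4.20 with TiO2, 3.89 to 3.98 with estradiol and 3.64 to 4.25 with vehicle. The groups overlapped except that TiO2 plus estradiol lay above estradiol and above talc plus estradiol. Talc plus estradiol against TiO2 plus estradiol gave -0.33 ± 0.15 (unadjusted p = 0.045, adjusted p = 0.20), and no contrast passed.

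Cyp7b1 carries out the next step of ligand synthesis. Its TiO2 plus estradiol arrays read 3.99, 3.48 and 4.02, against 3.20, 3.42 and 3.17 with TiO2. The groups did not overlap, but replicate 2 of TiO2 plus estradiol lay close to the TiO2 arrays. The difference was 0.56 ± 0.15 (95% interval 0.26 to 0.87), with an unadjusted p of 0.0013 and an adjusted p of 0.18. All 8 probe sets were higher, by 0.01 to 1.55, and 7 of the 8 are dimmer than the median gene. The other groups read 3.47 to 3.67 with talc plus estradiol, 3.41 to 3.60 with talc, 3.28 to 3.69 with estradiol and 3.48 to 3.70 with vehicle, and these 4 overlapped each other. TiO2 plus estradiol overlapped vehicle and estradiol, and differed from estradiol by 0.28 ± 0.15 (adjusted p = 0.59 in limma). The TiO2 arrays lay below all vehicle arrays, at -0.35 ± 0.15 as a description.

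In TiO2 plus estradiol against TiO2, limma called 0 of the 10 genes and 0.00866% of all genes. An unadjusted p under 0.05 was reached by 3 of the 10 (Osbpl3, Gpr183 and Cyp7b1) and by 13% of all genes (3012 of 23102). Osbpl3 differed there by -0.31 ± 0.10 (adjusted p = 0.25). In talc plus estradiol against talc, 0 of the 10 genes and 0.0% of all genes were called, with 2 of the 10 (Osbp2 and Osbpl3) and 6.58% of all genes at an unadjusted p under 0.05. Both interactions called 0 of the 10 genes and 0.0% of all genes. At an unadjusted p under 0.05 the interaction with talc had 2 of the 10 (Osbpl3 and Gpr183) and 6.32% of all genes, and the interaction with TiO2 had 2 of the 10 (Gpr183 and Cyp7b1) and 8.05% of all genes. Each of these contrasts uses talc, TiO2 or vehicle arrays that took part in choosing the genes. The counts among the 10 are therefore not independent of that choice, and no conclusion is drawn from them.

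The remaining 5 family members passed no test. Osbp, the founding member, which exchanges cholesterol for a phosphoinositide between the endoplasmic reticulum and the Golgi, stayed between 8.91 and 9.24 over all 18 arrays. Its group means spanned 0.15, from 9.02 with TiO2 plus estradiol to 9.17 with TiO2. In talc plus estradiol against estradiol its difference was 0.08 ± 0.10 (95% interval -0.13 to 0.28), an interval that leaves out the change seen for Osbp2.

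Osbpl8, which is anchored in the endoplasmic reticulum and moves phosphatidylserine to the plasma membrane, averaged 11.92 ± 0.10 with talc plus estradiol and 11.75 ± 0.07 with TiO2 plus estradiol (SD, n = 3 arrays each). The lowest array of the first group and the highest of the second both read 11.81. All 22 probe sets were higher with talc plus estradiol, but only by 0.02 to 0.40, and the gene value differed by 0.17 ± 0.09 (adjusted p = 0.28). Without estradiol, talc arrays read 11.99 to 12.04, TiO2 arrays 11.57 to 11.84 and vehicle arrays 11.82 to 11.87. Talc lay above both, by 0.27 ± 0.09 against TiO2 and 0.16 ± 0.09 against vehicle, as a description. Of the 22 probe sets, 19 were higher and 3 lower in talc against vehicle. The difference from vehicle was 0.25 ± 0.10 with the brightest probe set and -0.08 ± 0.11 with the median of the probe sets.

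Osbpl5, the relative of Osbpl8 at the same contact sites, ranged from 3.89 to 4.68. Of its 23 probe sets 16 are dimmer than the median gene, its largest SD within a group was 0.39, and its group means spanned 0.38. Osbpl9 and Osbpl11, whose human products bind each other, read 7.45 to 8.15 and 7.40 to 7.99. Osbpl9 differed by -0.22 ± 0.14 in talc plus estradiol against estradiol (adjusted p = 0.46). Osbpl11 differed by 0.25 ± 0.12 in talc plus estradiol against TiO2 plus estradiol (95% interval 0.00 to 0.49, adjusted p = 0.22). The interval of each of these differences excludes a change as large as that of Osbp2.

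A list of 40 other genes of oxysterol and sterol handling gives the surroundings, and all 40 were measured. This list, too, was chosen with earlier results of these arrays known. In talc plus estradiol against estradiol 2 rose and 3 fell, with 14 at an unadjusted p under 0.05. Over all genes 7.13% were called and 19.1% had an unadjusted p under 0.05. The list median was -0.02, beside 0.0 for all genes. Those that rose were Abcg1, a sterol exporter, by 0.55 ± 0.10 (adjusted p = 0.0038), and Pi4k2a, a kinase that makes the phosphoinositide that the family exchanges, by 0.45 ± 0.10 (adjusted p = 0.0076). Those that fell were Insig1, which holds back sterol synthesis, at -0.41 ± 0.09 (adjusted p = 0.013), and the oxysterol-making enzyme Cyp27a1, at -0.43 ± 0.12 (adjusted p = 0.037). Cyp39a1, which acts on an oxysterol in bile acid synthesis, fell too, at -0.86 ± 0.22 (adjusted p = 0.024), and is dimmer than the median gene. None of the 5 other family members on the list (Osbpl1a, Osbpl2, Osbpl6, Osbpl7 and Osbpl10) was called, and their differences ran from -0.38 to 0.01. Osbpl1a was called with the brightest probe set (-0.81, adjusted p = 0.033), with the median of probe sets (-0.58, adjusted p = 0.039) and among genes above the median level (-0.38, adjusted p = 0.025). With TiO2 plus estradiol Osbpl1a was also lower than with estradiol, at -0.36 ± 0.12 (unadjusted p = 0.0096, adjusted p = 0.43 in limma). Talc plus estradiol differed from TiO2 plus estradiol by -0.02 ± 0.12, but by -0.96 with the brightest probe set (adjusted p = 0.012).

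Abcg1 shows the array values behind these calls. It read 10.07, 9.93 and 10.15 with talc plus estradiol, against 9.45, 9.42 and 9.63 with estradiol, with no overlap. Without estradiol the gap was narrower, at 9.88, 9.85 and 10.06 with talc against 9.77, 9.81 and 9.83 with vehicle. All estradiol arrays of Abcg1 lay below all vehicle arrays, so its called difference is measured from a lower reference. The group means were 10.05 with talc plus estradiol, 9.93 with talc, 9.50 with estradiol and 9.80 with vehicle. Insig1 read 10.61, 10.64 and 10.60 with talc plus estradiol, all below the estradiol values of 11.01, 10.99 and 11.08. The calls in this list depended on arrays and settings. Cyp27a1 was called in 16 of 26 alternatives and lost its call without any 1 of the 6 arrays compared, at -0.48 to -0.37. Cyp39a1 was called in 19 of 25 and lost its call without talc plus estradiol replicate 2 (-0.81) or 3 (-0.82) or estradiol replicate 1 (-0.89) or 2 (-0.77). Insig1 lost it without replicate 3 of talc plus estradiol (-0.40) or of estradiol (-0.38), and with the brightest probe set (-0.25, adjusted p = 0.34) or only the arrays compared (adjusted p = 0.054). Pi4k2a lost it with the brightest probe set (0.25, adjusted p = 0.47), the median of probe sets (adjusted p = 0.058) or only the arrays compared (adjusted p = 0.059). Abcg1 lost it with the median of probe sets (adjusted p = 0.086).

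In talc plus estradiol against TiO2 plus estradiol 4 of the 40 rose and 1 fell, with 14 at an unadjusted p under 0.05. Over all genes 9.53% were called and 23.5% had an unadjusted p under 0.05. The list median was -0.02, beside -0.01 for all genes. Abcg1 rose by 0.54 ± 0.10 (adjusted p = 0.0038), Pi4k2a by 0.52 ± 0.10 (adjusted p = 0.0027) and the exporter Abca1 by 0.47 ± 0.10 (adjusted p = 0.0074). Stard3, a sterol carrier of late endosomes, rose by 0.47 ± 0.13 (adjusted p = 0.026). Against estradiol neither Stard3 (0.41 ± 0.13, adjusted p = 0.062) nor Abca1 (0.34 ± 0.10, adjusted p = 0.053) was called. Without estradiol the arrays of Stard3 overlapped, at 7.38 to 7.61 with talc and 7.41 to 7.74 with TiO2. The mean of Abca1 was 8.34 with talc plus estradiol and 8.20 with vehicle, and lowest with TiO2 plus estradiol, at 7.87. Insig1 again fell, at -0.45 ± 0.09 (adjusted p = 0.0067). The call of Stard3 was lost without replicate 1 (0.37) or 3 (0.47) of talc plus estradiol or replicate 2 (0.48) or 3 (0.44) of TiO2 plus estradiol, and with quantile normalization (0.33). That of Abca1 was lost with the median of probe sets (0.31, adjusted p = 0.21) and with only the arrays compared (adjusted p = 0.068). With the brightest probe set all 5 calls were lost. The values were then 0.35 for Abcg1 (adjusted p = 0.064), 0.42 for Pi4k2a (0.14), 0.32 for Abca1 (0.17), -0.03 for Stard3 (0.92) and -0.22 for Insig1 (0.35), and 4 other genes were called instead (Osbpl1a, Cyp27a1, Hsd11b1 and Stard4). In TiO2 plus estradiol against estradiol limma called 0 of the 40. An unadjusted p under 0.05 was reached by 1 of them (Osbpl1a) and by 8.91% of all genes. The list median was -0.03, beside -0.01.

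**Figure D4:**
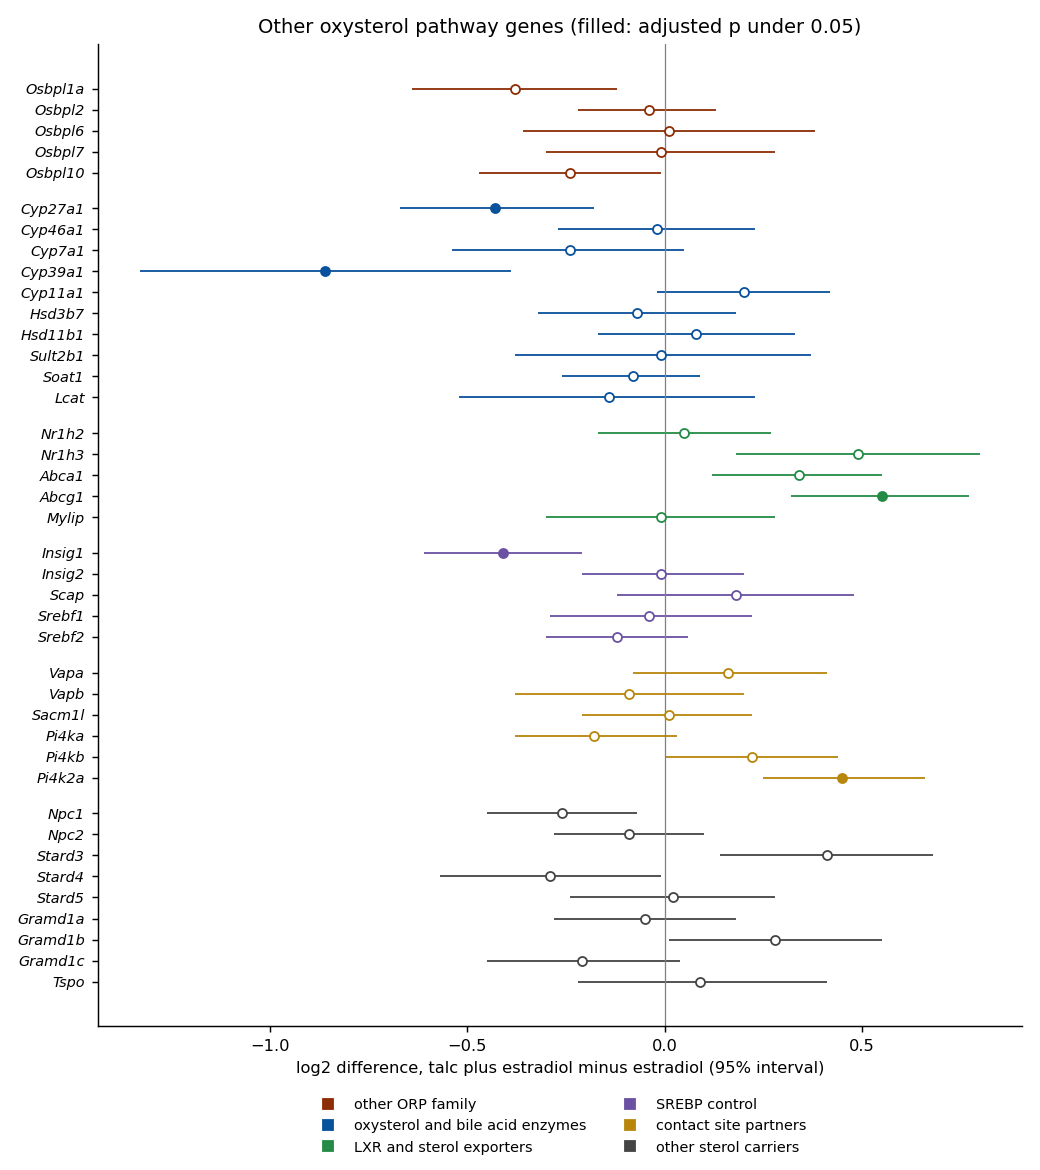
Log2 difference in talc plus estradiol against estradiol (horizontal axis, with 95% intervals) for the 40 other genes of the oxysterol pathway (vertical axis), coloured by role; filled points have an adjusted p under 0.05. Abcg1 and Pi4k2a lie to the right, and Insig1, Cyp27a1 and Cyp39a1 to the left.

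The genes whose values over the 18 arrays were most like those of Osbp2, among 10781 genes above the median level, were Sqstm1, an autophagy receptor (Pearson r = 0.99), Nop2 (0.99) and Dnttip2 (0.98), both of the nucleolus, the adhesion molecule Icam1 (0.98) and the kinase Plk2 (0.98). These points share arrays and treatment groups, and they fall into arrays with and without talc. Within the 12 arrays without talc the same correlations were 0.21, 0.27, 0.56, 0.02 and 0.09. Within the 6 arrays with talc they were 0.83, 0.41, 0.65, 0.59 and 0.34.

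The genes most like Gpr183 were Mfge8, which marks dying cells for uptake (r = 0.88), Trappc6a, part of a vesicle tethering complex (0.87), the helicase Helq (0.80), Anapc11, part of a ubiquitin ligase of the cell cycle (0.78), and the pseudogene Pisd-ps3 (0.78). On the 12 arrays without talc these correlations were 0.89, 0.89, 0.79, 0.74 and 0.84. On the 6 with talc they were -0.37, -0.38, 0.60, 0.39 and -0.15. The group means of Mfge8 were 9.73 with talc plus estradiol, 9.73 with talc, 9.98 with TiO2 plus estradiol, 10.06 with TiO2, 9.86 with estradiol and 9.72 with vehicle.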

How the data were processed

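RNA of 18 J774 cell samples was hybridised to Affymetrix mouse arrays with biotin labels. The values are the authors' deposited table of linear intensities per probe set, made with RMA per the submitters' processing notes; the build, the RMA settings and the step back to a linear scale are not given in the sources used here. Intensities ran from 1.458 to 17256. Of 269751 probe sets, 233753 have 1 gene symbol in the platform annotation, 5106 have several and 30892 have none. Symbols were updated through RefSeq synonyms for 2247 genes. Each gene was given the mean of the log2 intensities of its single-symbol probe sets (median 8 per gene; 2303 genes have 1).

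All 18 arrays were fitted in limma 3.58.1 (R 4.3.3) with a mean per group, giving 12 residual and 4.57 prior degrees of freedom. Tests were two-sided, with Benjamini-Hochberg adjustment over 23102 genes per contrast and a threshold of 0.05. The script was tested on simulated data. No 2 arrays held identical values. The genes, the list of 40 pathway genes and the contrasts were chosen with earlier results of these data known. All 10 genes are named, the pathway genes are named where they pass, and the 5 genes with the highest Pearson correlation are named for Osbp2 and for Gpr183. Alternatives were a filter on dim genes, the brightest or the median probe set, quantile normalization, subtracted array medians, array weights, a robust variance that follows intensity, only the arrays compared, and each array left out.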

Additional observations from a re-analysis of the deposited data

Results flagged for a closer look

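For 3 effects, 1 pair of groups lay apart with no overlap of arrays in one direction, and another pair did so in the opposite direction. How often such a pattern occurs over all genes was not counted, so no conclusion is drawn from these 3. Estradiol went with a higher Osbpl3 value in talc-treated cells (0.23) and a lower one in TiO2-treated cells (-0.31), and the second effect minus the first was -0.53 on the log2 scale. That difference itself was not tested.

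The effect of talc on Gpr183 was -0.29 in estradiol-treated cells and 0.17 in cells without estradiol, a difference of -0.46 (interaction in limma, adjusted p = 0.64). The effect of estradiol on Gpr183 was -0.21 in TiO2-treated cells and 0.39 in cells without particles, a difference of -0.60 (interaction, adjusted p = 0.27). Neither interaction passed the test over all genes, and both use arrays that took part in choosing the gene.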

How the results depend on the processing

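No paired analysis was possible because array numbers in the labels run on across the groups, so no number is shared. The numbers form 1 consecutive block per group, and the labels do not say what they stand for. If they give an order of handling, that order cannot be told apart from treatment. The 2 genes of the set called in talc plus estradiol against estradiol became 1 (Osbp2) with the brightest probe set and 1 (Osbp2) with only the arrays compared, and stayed 2 with each array left out. The 3 called in talc plus estradiol against TiO2 plus estradiol became 1 with the brightest probe set (Osbpl3), 1 with the median of probe sets and 1 with only the arrays compared (Osbp2 each time), and ranged from 1 to 3 with each array left out. The lowest came without talc plus estradiol replicate 1 or 3. In the 6 other tested contrasts the count was 0 under all alternatives run.

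Of the 40 pathway genes, the 5 called against estradiol became 9 among genes above the median level, 9 with an intensity trend and 9 with array weights, but 2 with the brightest probe set, 2 with the median of probe sets and 2 with only the arrays compared. With each array left out they ranged from 2 (without talc plus estradiol replicate 3) to 7 (without TiO2 plus estradiol replicate 3), with 3 without estradiol replicate 2 or 3. The 5 called against TiO2 plus estradiol became 11 among genes above the median level, 8 with array medians subtracted and 2 with only the arrays compared, and ranged from 4 to 6 with each array left out. With the brightest probe set 4 were called, none of them among the 5. Stard3 there reversed to -0.03 with the brightest probe set. The cause was not tested in any of these cases.

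Described values moved too: Osbp2 in talc against vehicle was 1.53 with the brightest probe set and 2.11 with the median of probe sets, Gpr183 in TiO2 against vehicle was 0.43 and Gpr183 in talc against vehicle -0.02 with the brightest probe set. Osbpl8 in talc against vehicle was -0.08 with the median of probe sets and 0.25 with the brightest, while 19 of its 22 probe sets were higher. The median SE of a difference was 0.15 between groups and 0.21 for an interaction. Of the probe sets behind the dim genes, 16 of 23 for Osbpl5 and 7 of 8 for Cyp7b1 lie below the median gene.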
